A study of Homo sapiens with 12 samples.

Results

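The genes described here are 10 transcription factors that set B cell and plasma cell identity, namely IRF4, PRDM1, XBP1, POU2AF1, IKZF1, IKZF3, PAX5, BCL6, BACH2 and SPIB. They were chosen by name, from what is known of the B lineage, and all 10 were among the 19775 genes measured. Together they were read by 31 of the 54613 probe sets of the array, from 2 probe sets for XBP1, POU2AF1, PAX5, BACH2 and SPIB to 9 for IKZF1. A gene's value is the average of the probe sets that name it and no other gene.

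Multiple myeloma is a cancer of plasma cells, and carfilzomib is a drug that blocks the proteasome, the protease that degrades ubiquitin-tagged proteins. KMS-11 and KMS-34 are established human myeloma lines, and the parental cultures had never been selected in the drug. Their derivatives KMS-11/Cfz and KMS-34/Cfz, resistant to 12 nM carfilzomib, were raised by stepwise exposure and grown drug-free for 1 week before RNA was taken. Each of these 4 groups was run on 3 Affymetrix human genome arrays, so the 12 arrays ask how the factors differ between resistant and parental cells of each line, and between the parental lines. Each line contributed a single resistant derivative. The sources used here do not say that the 3 replicates came from separate cultures, and p-values then cover no more than the spread among the arrays at hand.

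In a mature B cell, PAX5, SPIB, BACH2 and BCL6 hold the B cell program and keep antibody secretion off. On differentiation, IRF4 and PRDM1 shut that program down, and XBP1 expands the secretory apparatus. Myeloma cells keep the plasma cell program and depend on IRF4, while the zinc finger proteins IKZF1 and IKZF3 help to sustain IRF4 and are the proteins that lenalidomide-type drugs send to the proteasome through cereblon.

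The deposited values are log2 values centred for each probe set, so they give differences between arrays and no level. Whether these cells express plasma cell markers at all could therefore not be checked, and no factor's level is set against that of another. KMS-34/Cfz replicate 1 stood apart from its group, with Pearson's r of 0.811 and 0.759 over all probe sets against replicates 2 and 3, which reached 0.925 with each other. The 10 factors are therefore given without that array as well. For the probe sets, listed genes and neighbours whose results are given below, changed calls in KMS-34/Cfz are stated by name or by the count of the list. Without that array, 13.7% of all genes were called in KMS-34/Cfz and 5.4% in KMS-11/Cfz. Among 5 lists of cell type markers, the plasma cell list had 4 of 11 genes lower and 0 higher in KMS-11/Cfz. In KMS-34/Cfz it had 3 lower and 1 higher. Over all genes and all arrays, 1.94% were lower and 1.63% higher in KMS-11/Cfz, and 4.69% lower and 5.4% higher in KMS-34/Cfz. With replicate 1 of KMS-34/Cfz left out, the plasma cell list had 4 lower and 1 higher in KMS-11/Cfz. In KMS-34/Cfz it then had 3 lower and 2 higher, CD38 being the added rise (0.44, adjusted p = 0.044 by limma). With all arrays CD38 did not pass (0.34, adjusted p = 0.11). The mean of that list on the centred scale ranged from -0.54 to -0.51 over the KMS-11/Cfz arrays and from -0.32 to -0.26 over the KMS-11 arrays, against -0.18 to -0.06 in KMS-34/Cfz and -0.06 to -0.01 in KMS-34. By limma, 0 of 7 mature B cell markers passed in either line (1 and 0 at an unadjusted p under 0.05) and 0 of 5 stromal markers (0 and 0 unadjusted). Of 6 T and NK cell markers only CD7 did (-0.63 in KMS-11/Cfz, adjusted p = 0.0015), and of 6 monocyte markers only CD14 (-0.32 in KMS-34/Cfz, adjusted p = 0.031), which lost its call with replicate 1 of KMS-34/Cfz left out (-0.24, adjusted p = 0.074). The part of these markers in the results below was not tested.

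In KMS-34/Cfz cells, the repressor BACH2 rose while IRF4, PRDM1 and IKZF3 fell, each relative to KMS-34. That is 4 of 10 factors called at an adjusted p under 0.05 in limma, where 10.1% of all genes were called in this comparison. Of the 10, 1 was higher, against 5.4% of all genes, and 3 were lower, against 4.69% of all genes. Their changes ran from -0.40 to 0.72 on the log2 scale, with a median of 0.02 against -0.01 over all genes. In KMS-11/Cfz cells 0 of 10 factors were called, where 3.57% of all genes were (1.63% higher and 1.94% lower), and the changes ran from -0.11 to 0.28 with a median of -0.04 (0.00 over all genes). There, 3 of the 10 had an unadjusted p under 0.05 by limma, where 2652 of all 19775 genes did. They were BACH2, SPIB and IKZF1, each with all 3 resistant arrays above all 3 parental arrays. Groups that did not overlap were found for these 3 of the 10 and for 26.8% of all genes, a similar share. In KMS-34/Cfz the groups did not overlap for 5 of the 10, the 4 called factors and SPIB, against 20.7% of all genes. In bulk RNA, fewer cells that express a gene and less of its RNA in each cell cannot be told apart.

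**Figure D1:**
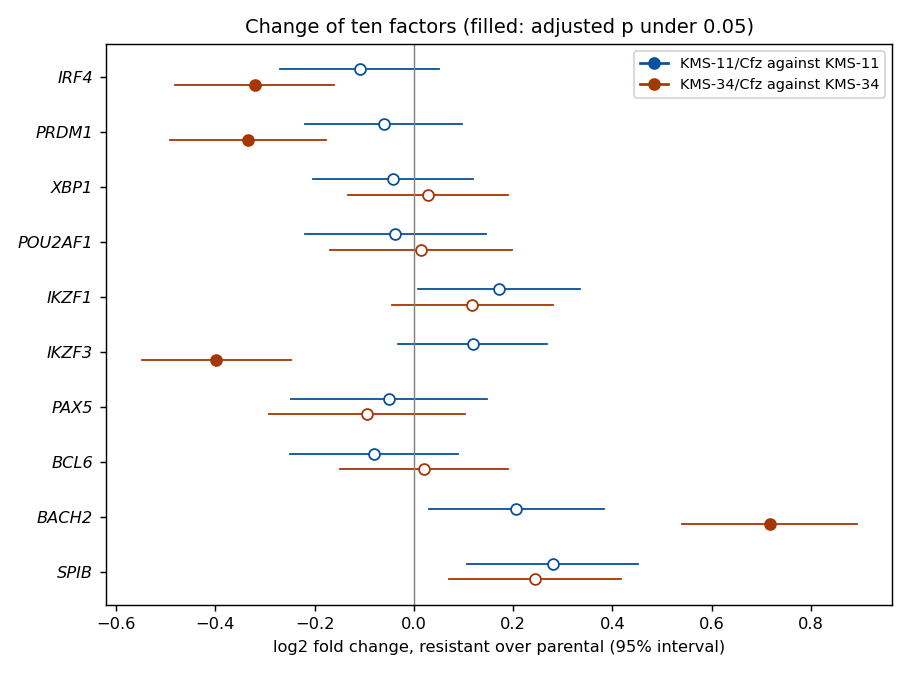
Log2 fold change of resistant over parental cells for the 10 factors (x axis, bars are 95% intervals of the limma fit), in KMS-11/Cfz (blue) and KMS-34/Cfz (brown), filled for an adjusted p below 0.05. The filled points are BACH2 at 0.72 on the right and IRF4, PRDM1 and IKZF3 between -0.40 and -0.32 on the left, all in KMS-34/Cfz.

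IRF4, the factor on which myeloma cells of many genetic backgrounds depend, was lower in KMS-34/Cfz cells. Relative to the mean of the KMS-34 arrays, the 3 KMS-34/Cfz arrays read -0.48, -0.27 and -0.21, and the KMS-34 arrays -0.06, 0.05 and 0.01. All 3 resistant arrays lay below all 3 parental arrays, with replicate 1 the lowest. The log2 fold change was -0.32 (SE 0.07, adjusted p = 0.014), a ratio of 0.801, and it was -0.24 (adjusted p = 0.027) without replicate 1. In KMS-11/Cfz the arrays read -0.12, -0.07 and -0.14 relative to the KMS-11 mean, with KMS-11 itself at -0.08, 0.07 and 0.01. These ranges overlapped, and the change of -0.11 (95% interval -0.27 to 0.05, adjusted p = 0.64) did not pass. The difference of -0.21 between the changes in the lines did not pass either (95% interval -0.44 to 0.02, adjusted p = 0.31), nor when the outlying array was dropped (-0.13, adjusted p = 0.38). In a fit of the KMS-34 and KMS-34/Cfz arrays alone, the fall of IRF4 lost its call (adjusted p = 0.10), and over 20 alternatives its adjusted p ranged from 0.0077 to 0.10.

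The 3 probe sets of IRF4 all read lower in KMS-34/Cfz, by different amounts. The probe set 216986_s_at changed by -0.59 (adjusted p = 0.0091 over all probe sets) and 204562_at by -0.25 (adjusted p = 0.048), while 216987_at read -0.12 (adjusted p = 0.53). With replicate 1 of KMS-34/Cfz left out, 216986_s_at still passed (-0.46, adjusted p = 0.022) and 204562_at did not (-0.21, adjusted p = 0.085). On 216986_s_at, the KMS-34/Cfz arrays stood at -0.83, -0.44 and -0.49 relative to the KMS-34 mean, below the KMS-34 arrays at -0.15, 0.17 and -0.02.

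PRDM1, also called Blimp-1, is the repressor that ends the B cell program. In KMS-34/Cfz it read -0.39, -0.21 and -0.41 relative to the KMS-34 mean, where the KMS-34 arrays read 0.08, 0.03 and -0.10. The groups did not overlap, and the fold change was -0.33 (SE 0.07, adjusted p = 0.0099), or -0.31 with KMS-34/Cfz replicate 1 left out (adjusted p = 0.022). In KMS-11/Cfz the values of -0.08, -0.07 and -0.03 overlapped the KMS-11 arrays, which ran from -0.08 to 0.07, and the change was -0.06 (95% interval -0.22 to 0.10, adjusted p = 0.86). The test of the difference between lines gave -0.27 (adjusted p = 0.16), or -0.24 (adjusted p = 0.17) when the outlying array was dropped. Of its 3 probe sets, 217192_s_at passed in KMS-34/Cfz at -0.52 (adjusted p = 0.0041), and 228964_at and 235668_at read -0.27 and -0.22 (adjusted p = 0.063 and 0.55). Only 217192_s_at passed the test of the difference between lines, at -0.52 (adjusted p = 0.046 over all probe sets). The call for PRDM1 was lost in a fit of the KMS-34 and KMS-34/Cfz arrays alone (adjusted p = 0.083) and with 235668_at, its probe set of largest variance, in place of the average (adjusted p = 0.52, the highest of 20 alternatives, of which the lowest was 0.0043).

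The 4 factors that moved in KMS-34/Cfz are IRF4, PRDM1, IKZF3 and BACH2, and the reference held promoter windows for IRF4, PRDM1 and BACH2. The 250 bases before each start, from RefSeq on GRCh38.p14, are shown because these factors moved in opposite directions in the same cells, and both IRF4 and BACH2 are known regulators of PRDM1. Capitals mark TTCCCA in the IRF4 window, the reverse complement of TGGGAA, which is the core that Ikaros family proteins recognise, and GGAACTGAA in the second PRDM1 window, which holds the letters of the ETS-IRF core.
IRF4, plus strand, chr6:391502-391751: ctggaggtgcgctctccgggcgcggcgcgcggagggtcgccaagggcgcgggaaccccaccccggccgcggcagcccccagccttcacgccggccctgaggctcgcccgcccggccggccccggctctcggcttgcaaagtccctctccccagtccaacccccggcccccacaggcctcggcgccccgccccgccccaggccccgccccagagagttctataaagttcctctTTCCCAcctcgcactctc
PRDM1, first start, plus strand, chr6:106086086-106086335: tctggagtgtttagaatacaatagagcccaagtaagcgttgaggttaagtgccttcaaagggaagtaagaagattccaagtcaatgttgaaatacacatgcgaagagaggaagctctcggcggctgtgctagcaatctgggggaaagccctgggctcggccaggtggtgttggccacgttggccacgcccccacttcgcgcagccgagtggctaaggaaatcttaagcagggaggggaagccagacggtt
PRDM1, second start, plus strand, chr6:106098691-106098940: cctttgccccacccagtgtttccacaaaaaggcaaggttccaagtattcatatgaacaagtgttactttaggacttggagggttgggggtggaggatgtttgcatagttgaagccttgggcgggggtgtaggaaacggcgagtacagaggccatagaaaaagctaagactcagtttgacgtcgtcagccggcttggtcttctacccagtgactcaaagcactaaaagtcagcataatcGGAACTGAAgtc
BACH2, minus strand, chr6:90296844-90297093: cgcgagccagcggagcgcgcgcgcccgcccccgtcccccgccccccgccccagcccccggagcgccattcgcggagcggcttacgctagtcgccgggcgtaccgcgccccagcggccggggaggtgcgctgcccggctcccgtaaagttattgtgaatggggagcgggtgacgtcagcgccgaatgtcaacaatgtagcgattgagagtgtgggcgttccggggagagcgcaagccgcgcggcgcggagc
The windows searched ran from 250 bases before to 50 bases after the start, on both strands, for 7 motifs, in 13 windows of 8 factors. The Ikaros core was found in the IRF4 window, in 1 of 2 XBP1 windows and in 1 of 3 IKZF1 windows, and 24.0% of the 35116 promoters in the table held it. The ETS-IRF core GGAANNGAA, through which IRF4 binds with an ETS partner such as SPIB, was found in the second PRDM1 window, without the further A of the full composite, and 7.79% of all promoters held it. The other motifs were the IRF core GAAANNGAA (8.11% of all promoters), which shares letters with the ETS-IRF core, the octamer ATGCAAAT that POU2AF1 binds with OCT proteins (1.77%), the XBP1 core CCACGTCA or TGACGTGG (0.729%), the BACH2-MAF core TGCTGAGTC (0.35%) and the BCL6 core TTCNNGGAA or TTCCNNGAA (4.45%). No window of BACH2, PAX5 or SPIB held any of the 7. The BCL6 core lay in the first of 2 windows of BCL6 itself, as TTCCGAGAA before the start and TTCTAGGAA after it. A match in this window describes letters and not a bound site.

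XBP1, the factor of the unfolded protein response that drives secretory genes, differed little in both comparisons. Its KMS-11/Cfz arrays read 0.01, -0.10 and -0.03 relative to KMS-11 and its KMS-34/Cfz arrays 0.09, 0.08 and -0.09 relative to KMS-34. These overlapped the parental arrays in both lines. The change was -0.04 in KMS-11/Cfz (95% interval -0.20 to 0.12, adjusted p = 0.92) and 0.03 in KMS-34/Cfz (95% interval -0.13 to 0.19, adjusted p = 0.91), where dropping replicate 1 moved it to -7.5e-04. XBP1 is switched on by splicing of its RNA through the enzyme IRE1, encoded by ERN1, and the 2 probe sets were not separated into spliced and unspliced RNA here. POU2AF1, the coactivator of octamer factors at immunoglobulin promoters, read -0.04 (95% interval -0.22 to 0.15, adjusted p = 0.94) in KMS-11/Cfz and 0.01 (95% interval -0.17 to 0.20, adjusted p = 0.96) in KMS-34/Cfz, or -0.02 (adjusted p = 0.90) when replicate 1 was dropped.

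**Figure D2:**
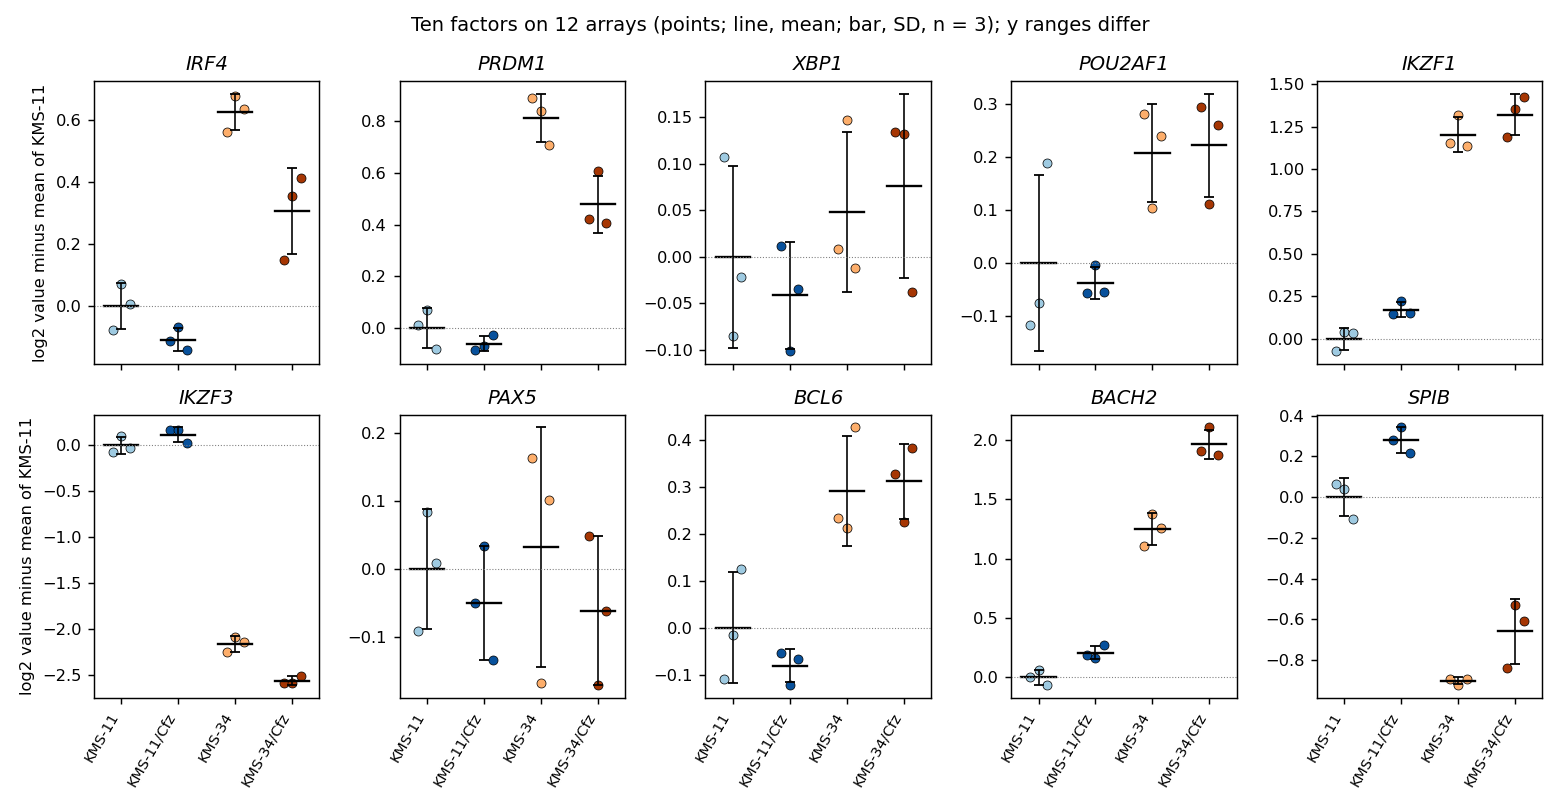
Log2 values of the 10 factors on the 12 arrays, each minus the mean of the KMS-11 arrays (y axis, its range differs between panels), in columns for KMS-11 and KMS-34 cells each followed by the resistant derivative, with points for arrays, lines for means and bars for the SD (n = 3). BACH2 steps up from KMS-34 to KMS-34/Cfz, IRF4, PRDM1 and IKZF3 step down, and IKZF3 in both KMS-34 groups lies more than 2 log2 units below KMS-11.

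IKZF3 and IKZF1 are zinc finger factors of the Ikaros family. IKZF3, or Aiolos, was lower in KMS-34/Cfz and read -0.43, -0.43 and -0.34 in the KMS-34/Cfz arrays relative to KMS-34, whose own arrays read -0.09, 0.07 and 0.02. All 3 resistant arrays were below all 3 parental arrays, with a fold change of -0.40 (SE 0.07, adjusted p = 0.0024), a ratio of 0.759, and with replicate 1 of KMS-34/Cfz left out it was -0.38 (adjusted p = 0.0054). In KMS-11/Cfz, IKZF3 read 0.16, 0.16 and 0.03 against -0.07, 0.10 and -0.03 in KMS-11, which overlapped, at a change of 0.12 (95% interval -0.03 to 0.27, adjusted p = 0.54). The difference between the changes in the lines was -0.52 (SE 0.10, adjusted p = 0.0067), and -0.50 (adjusted p = 0.0084) when KMS-34/Cfz replicate 1 was dropped, where 6.44% of all genes were called in that comparison (3.7% higher and 2.74% lower). This comparison uses the same arrays as the contrasts within the lines.

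The fall of IKZF3 was read by 227030_at (-0.47, adjusted p = 0.0054) and 236301_at (-0.45, adjusted p = 0.0065), and 221092_at read -0.28 (adjusted p = 0.20). The difference between lines passed on the same pair of probe sets, at -0.62 and -0.60 (adjusted p = 0.013 and 0.015), where 3.8% of all probe sets did. With 221092_at in place of the average, neither IKZF3 result passed (adjusted p = 0.18 in KMS-34/Cfz and 0.33 for the difference). Over the alternatives the adjusted p for IKZF3 ranged from 0.0016 to 0.18 in KMS-34/Cfz and from 0.0024 to 0.33 for the difference.

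IKZF1, or Ikaros, read 0.14, 0.22 and 0.15 in KMS-11/Cfz against -0.07, 0.04 and 0.03 in KMS-11. The groups did not overlap, but the change of 0.17 (95% interval 0.01 to 0.33) had an adjusted p of 0.33. In KMS-34/Cfz it read -0.02, 0.15 and 0.22 against -0.05, 0.12 and -0.07, at a change of 0.12 (95% interval -0.04 to 0.28, adjusted p = 0.43), or 0.18 (adjusted p = 0.11) when replicate 1 was dropped. Of its 9 probe sets, 8 read above 0 in each line and 0 passed by limma (3 and 1 at an unadjusted p under 0.05), although 220704_at did in KMS-34/Cfz once replicate 1 was dropped (0.44, adjusted p = 0.028). CRBN encodes cereblon, the receptor through which lenalidomide-type drugs degrade IKZF1 and IKZF3. It read 0.01 in KMS-11/Cfz (adjusted p = 0.98) and -0.16 in KMS-34/Cfz (adjusted p = 0.17), and its ligase partners DDB1, CUL4A, CUL4B and RBX1 passed in neither line. When KMS-34/Cfz replicate 1 was dropped, the cullins CUL4A (0.27, adjusted p = 0.013) and CUL4B (0.29, adjusted p = 0.023) passed in KMS-34/Cfz.

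BACH2, a repressor that holds B cells short of plasma cell fate and is known to repress PRDM1, had the largest change of the 10 factors between resistant and parental cells. The KMS-34/Cfz arrays stood at 0.66, 0.86 and 0.63 relative to the KMS-34 mean, and the KMS-34 arrays at -0.14, 0.13 and 0.01. All 3 resistant arrays were above the parental arrays, and the fold change was 0.72 (SE 0.08, adjusted p = 9.7e-05), a ratio of 1.64. Without KMS-34/Cfz replicate 1 it was 0.74 (adjusted p = 1.8e-04), and the call held under all 20 alternatives (adjusted p 2.0e-05 to 0.0035). Both probe sets rose, 221234_s_at by 0.77 (adjusted p = 7.1e-05) and 227173_s_at by 0.66 (adjusted p = 0.0014).

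In KMS-11/Cfz, BACH2 read 0.19, 0.16 and 0.27 against 0.00, 0.06 and -0.06 in KMS-11, so the resistant arrays were again above the parental arrays. The change of 0.21 (95% interval 0.03 to 0.38, adjusted p = 0.25) did not pass. The lines differed in the change of BACH2 by 0.51 (SE 0.12, adjusted p = 0.018), and by 0.54 (adjusted p = 0.014) when KMS-34/Cfz replicate 1 was dropped. That difference lost its call without KMS-11/Cfz replicate 2 (0.49, adjusted p = 0.054) or KMS-11 replicate 2 (0.48, adjusted p = 0.053), within a range of 0.0015 to 0.054 over 19 alternatives. On the probe sets it passed for 221234_s_at (0.49, adjusted p = 0.030 over all probe sets) and not for 227173_s_at (0.53, adjusted p = 0.069).

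SPIB, an ETS factor of mature B cells, leaned upward in both lines without passing in either. In KMS-11/Cfz the arrays read 0.28, 0.34 and 0.22 against 0.07, 0.04 and -0.11 in KMS-11, and in KMS-34/Cfz they read 0.07, 0.37 and 0.29 against 0.01, -0.02 and 0.01 in KMS-34. The resistant arrays were above the parental arrays in both lines. The changes were 0.28 (SE 0.08, adjusted p = 0.083) and 0.24 (SE 0.08, adjusted p = 0.076). Its probe sets did not read alike: 205861_at rose by 0.51 in KMS-34/Cfz (adjusted p = 0.0028 over all probe sets), and 232739_at read -0.03 (adjusted p = 0.96). In KMS-11/Cfz they read 0.34 and 0.22 (adjusted p = 0.082 and 0.68). SPIB passed in both lines once replicate 1 of KMS-34/Cfz was left out, at 0.28 in KMS-11/Cfz (adjusted p = 0.018) and 0.33 in KMS-34/Cfz (adjusted p = 0.0070), within ranges of 0.011 to 0.30 and 0.0024 to 0.27 over 20 alternatives each.

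PAX5, which commits cells to the B lineage, read -0.05 in KMS-11/Cfz (95% interval -0.25 to 0.15, adjusted p = 0.92) and -0.09 in KMS-34/Cfz (95% interval -0.29 to 0.10, adjusted p = 0.66). BCL6, the repressor of the germinal centre, read -0.08 (95% interval -0.25 to 0.09, adjusted p = 0.80) and 0.02 (95% interval -0.15 to 0.19, adjusted p = 0.94). When KMS-34/Cfz replicate 1 was dropped, PAX5 read -0.15 (adjusted p = 0.35) and BCL6 0.01 (adjusted p = 0.94) in that line. The resistant arrays of both genes overlapped the parental arrays in both lines.

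**Figure D3:**
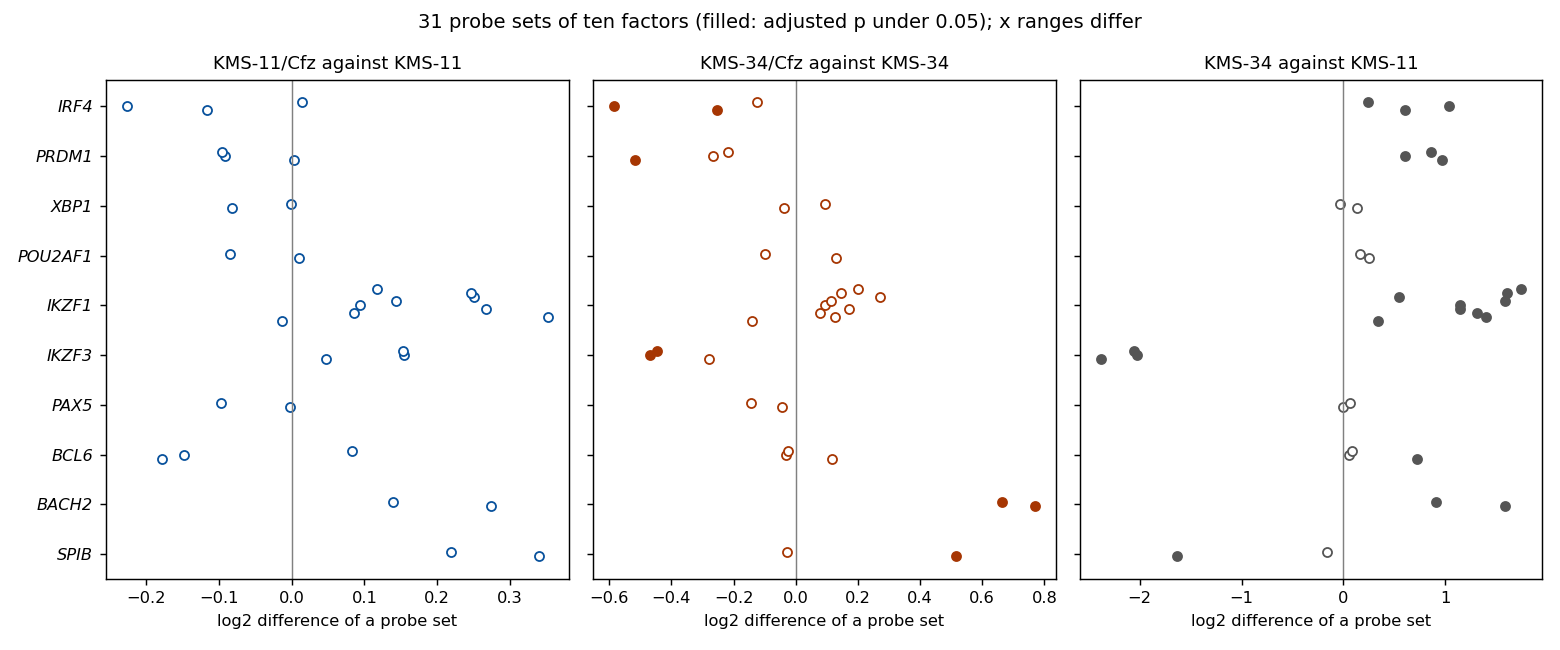
Log2 differences for the 31 probe sets of the 10 factors (x axis, its range differs between panels), as resistant over parental in each line and as KMS-34 over KMS-11, filled for an adjusted p below 0.05 over all 54613 probe sets. In KMS-34/Cfz the 8 filled points are 5 below 0, of IRF4, PRDM1 and IKZF3, and 3 above 0, of BACH2 and SPIB, while KMS-11/Cfz has none.

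At the level of probe sets, 0 of 31 were called by limma in KMS-11/Cfz (5 at an unadjusted p under 0.05), where 1.75% of all probe sets were, and 8 of 31 in KMS-34/Cfz, where 7.05% were. The share of all probe sets at the unadjusted threshold was not taken. Between the parental lines 22 of 31 were called, 18 higher and 4 lower in KMS-34, against 34.8% of all probe sets.

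The parental lines themselves differed in 7 of 10 factors, where 42.1% of all genes were called (21.6% higher and 20.5% lower in KMS-34). For the same 7 the groups did not overlap, against 50.1% of all genes. Relative to KMS-11, KMS-34 cells had more RNA of IRF4, PRDM1, IKZF1, BCL6 and BACH2 and less of IKZF3 and SPIB. IKZF3 read -2.25, -2.09 and -2.14 in the KMS-34 arrays relative to the KMS-11 mean, a difference of -2.16 (SE 0.07, adjusted p = 1.2e-11) and a ratio of 0.224. IKZF1 read 1.15, 1.32 and 1.14, a ratio of 2.30 (adjusted p = 1.1e-08). The Ikaros family pair thus stood on opposite sides in the parental lines, with all 9 probe sets of IKZF1 higher in KMS-34, from 0.34 to 1.75, and all 3 of IKZF3 lower, from -2.39 to -2.03.

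BACH2 was higher in KMS-34 than in KMS-11 before any selection, at 1.10, 1.37 and 1.26 relative to the KMS-11 mean, which is a difference of 1.25 (adjusted p = 1.8e-08) and a ratio of 2.37. Its order from lowest to highest was KMS-11 at 0.00 ± 0.06, KMS-11/Cfz at 0.21 ± 0.06, KMS-34 at 1.25 ± 0.13 and KMS-34/Cfz at 1.96 ± 0.12 (mean ± SD, n = 3). The lower pair did not pass the adjusted threshold, although its arrays did not overlap, and the upper pair did. KMS-11/Cfz and KMS-34 were not tested against each other, and their arrays did not overlap, with highest and lowest values of 0.27 and 1.10. IRF4 and PRDM1 were higher in KMS-34 by 0.63 (adjusted p = 7.8e-06) and 0.81 (adjusted p = 4.8e-07). After their fall, the KMS-34/Cfz arrays still read 0.15 to 0.41 for IRF4 and 0.41 to 0.61 for PRDM1 above the KMS-11 mean.

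SPIB was lower in KMS-34, at -0.89, -0.92 and -0.89 relative to the KMS-11 mean and a ratio of 0.536 (adjusted p = 4.3e-07), and again the probe sets differed, with 205861_at at -1.64 and 232739_at at -0.16. BCL6 was higher by 0.29 (adjusted p = 0.0074), read by 203140_at at 0.73 (adjusted p = 6.8e-05), with its other probe sets at 0.06 and 0.09. XBP1 (0.05, adjusted p = 0.68), PAX5 (0.03, adjusted p = 0.83) and POU2AF1 (0.21, adjusted p = 0.066) did not pass. These parental differences use the same KMS-11 and KMS-34 arrays as the resistant comparisons.

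Of 24 other transcription factors of the B lineage, KMS-11/Cfz had 1 that rose and 1 that fell (median -0.02), and KMS-34/Cfz had 3 that rose and 5 that fell (median -0.04), where 3.57% and 10.1% of all genes were called. TCF4, the E protein E2-2, rose in both lines, by 0.31 in KMS-11/Cfz (adjusted p = 0.020) and 0.63 in KMS-34/Cfz (adjusted p = 5.0e-05). MITF, which is known to restrain IRF4 in resting B cells, rose by 0.72 in KMS-34/Cfz (adjusted p = 3.7e-06) and read 0.17 in KMS-11/Cfz (adjusted p = 0.14). IRF8, the relative of IRF4 used by germinal centre B cells, rose by 0.51 in KMS-34/Cfz (adjusted p = 5.6e-04) and read 0.02 in KMS-11/Cfz. KLF2, a regulator of quiescence and homing, changed by -0.57 in KMS-34/Cfz (adjusted p = 2.3e-04), and MEF2C changed by -0.34 in KMS-11/Cfz (adjusted p = 0.046). The changes in the lines differed for MITF by 0.55 (adjusted p = 0.0011), for IRF8 by 0.49 (adjusted p = 0.012) and for KLF2 by -0.65 (adjusted p = 0.0020), and for TCF4 the difference of 0.32 did not pass (adjusted p = 0.058), except when KMS-34/Cfz replicate 1 was dropped (0.36, adjusted p = 0.025).

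Among 32 partners and controllers of the factors, KMS-11/Cfz had 1 rise and 2 falls and KMS-34/Cfz had 3 of each, both with a median of 0.01 and against 3.57% and 10.1% of all genes called. When KMS-34/Cfz replicate 1 was dropped, KMS-34/Cfz had 5 rises and 2 falls, and KMS-11/Cfz had 2 rises and 2 falls. STAT6, a signal transducer of interleukin receptors, rose in both, by 0.28 in KMS-11/Cfz (adjusted p = 0.020) and 0.28 in KMS-34/Cfz (adjusted p = 0.0083). REL, an NF-kB subunit of activated B cells, rose by 0.43 in KMS-34/Cfz (adjusted p = 8.0e-04), while NFKB1 changed by -0.38 (adjusted p = 0.0041) and BATF3 by -0.39 (adjusted p = 0.012). In KMS-11/Cfz the falls were those of ERN1, the kinase that splices XBP1 RNA, at -0.33 (adjusted p = 0.0049), and of the corepressor TLE3 at -0.35 (adjusted p = 0.041).

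Target genes of the factors were counted as well. Of 19 known targets of XBP1, 13 fell and 0 rose in KMS-11/Cfz, where XBP1 RNA itself read -0.04. Their median was -0.32, against 0.00 over all genes, of which 1.94% fell. All 19 read below 0, from -0.78 to -0.21, and in each of them the resistant arrays lay below the parental ones, where 26.8% of all genes had groups that did not overlap. FKBP11, a secretory chaperone, changed by -0.78 (adjusted p = 7.7e-06), CRELD2 by -0.49 (adjusted p = 5.5e-04) and the disulfide isomerase PDIA4 by -0.42 (adjusted p = 0.0022). In KMS-34/Cfz, 6 of 19 fell and 1 rose, with a median of -0.10, where 4.69% of all genes fell and 5.4% rose. There SDF2L1 changed by -0.49 (adjusted p = 0.0039), MANF by -0.45 (adjusted p = 8.0e-04) and SEC24D by -0.36 (adjusted p = 0.020). EDEM1, which takes misfolded proteins out of the folding cycle, went opposite ways, falling in KMS-11/Cfz (-0.35, adjusted p = 0.0081) and rising in KMS-34/Cfz (0.32, adjusted p = 0.0069), a difference of 0.67 (adjusted p = 7.6e-04). For 7 of the 19 the change differed between the lines, each time in the positive direction for KMS-34. The count of 13 in KMS-11/Cfz dropped to 7 or 8 on leaving out any 1 KMS-11 or KMS-11/Cfz array. It rose to 17 without KMS-34/Cfz replicate 1, within a range of 7 to 18 over the alternatives. The count of 6 in KMS-34/Cfz dropped to 3 without KMS-34 replicate 2, to 3 with the probe set of largest variance and to 2 with the line fitted alone. When KMS-34/Cfz replicate 1 was dropped, 5 fell and 2 rose in KMS-34/Cfz, PDIA4 being the added rise (0.19, adjusted p = 0.047).

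Of 9 genes that IRF4 is known to drive in myeloma, 2 fell in KMS-11/Cfz (median -0.14) and 4 in KMS-34/Cfz (median -0.04), where 1.94% and 4.69% of all genes fell, and 0 rose in either line. SCD, the fatty acid desaturase, changed by -0.42 in KMS-11/Cfz (adjusted p = 0.0049) and -0.53 in KMS-34/Cfz (adjusted p = 3.9e-04). SQLE, an enzyme of cholesterol synthesis, changed by -0.39 (adjusted p = 0.0046) and -0.49 (adjusted p = 4.0e-04). KLF2, given above, and MYC, the growth regulator that forms a loop with IRF4 in myeloma, passed in KMS-34/Cfz alone, MYC at -0.33 (adjusted p = 0.0074). For MYC the difference between lines did not pass (-0.28, adjusted p = 0.12).

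**Figure D4:**
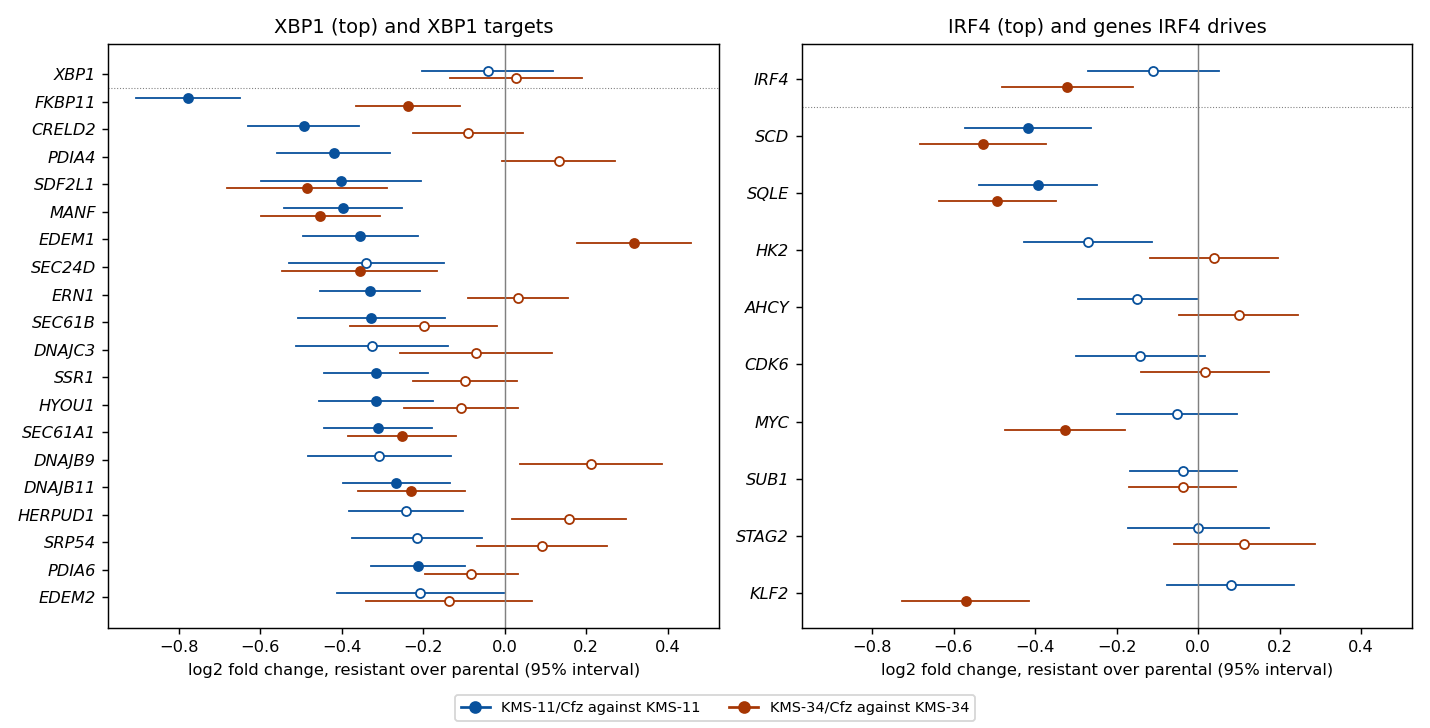
Log2 fold change of resistant over parental cells (x axis, bars are 95% intervals) for XBP1 above its 19 targets, left, and IRF4 above 9 genes it drives, right, in KMS-11/Cfz (blue) and KMS-34/Cfz (brown), filled for an adjusted p below 0.05. The blue points of the XBP1 targets all lie left of 0, from -0.78 to -0.21, while XBP1 itself reads -0.04.

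For the lists in this paragraph, the shares over all genes were 1.63% higher and 1.94% lower in KMS-11/Cfz, and 5.4% higher and 4.69% lower in KMS-34/Cfz. An unadjusted p under 0.05 by limma was reached by 2652 of 19775 genes in KMS-11/Cfz and by 4298 in KMS-34/Cfz. Of 7 genes known to be repressed by BACH2, some of them also by its relative BACH1 through the same element, 3 rose in KMS-11/Cfz. They were BLVRB, an enzyme of haem breakdown, by 1.87 (adjusted p = 6.9e-08), GCLM by 0.51 (adjusted p = 0.0080) and NQO1 by 0.48 (adjusted p = 0.0043). In KMS-34/Cfz, where BACH2 itself was higher, BLVRB rose by 0.31 (adjusted p = 0.028) and PRDM1 fell as above. When KMS-34/Cfz replicate 1 was dropped, HMOX1 (0.36, adjusted p = 0.019) and NQO1 (0.24, adjusted p = 0.049) passed there too. The difference between lines was -1.56 for BLVRB (adjusted p = 5.7e-06). Of 10 genes that BCL6 represses, CXCR4, a homing receptor, rose in both lines, by 0.29 (adjusted p = 0.015) and 0.62 (adjusted p = 2.5e-05), and PRDM1, IRF4 and MYC fell in KMS-34/Cfz. BCL2, also of that list, passed in KMS-34/Cfz once replicate 1 was dropped (0.33, adjusted p = 0.012). Of 7 genes that PRDM1 represses, BACH2 rose and MYC fell in KMS-34/Cfz, and 0 passed by limma in KMS-11/Cfz (3 at an unadjusted p under 0.05, namely SPIB, ID3 and BACH2, each with resistant arrays above parental ones). Of 11 genes that PAX5 switches on, 0 passed by limma in either line (medians 0.08 and -0.01, with 2 and 1 at an unadjusted p under 0.05), although BLNK did in KMS-34/Cfz once replicate 1 was dropped (0.29, adjusted p = 0.039). The lists overlap one another and the 10 factors.

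The genes whose values were most like those of the called factors were found by Pearson's r over the 12 arrays, after the mean of each line was taken out. These values are descriptions, since the 12 arrays come from 4 groups only and r follows the changes given above. For BACH2 they were SCNN1B (0.972), SLC7A7 (0.968) and LINC00996 (0.967). For IKZF3 they were LIX1L (0.969), MB21D2 (0.964) and MAN1C1 (0.960), for PRDM1 ANGEL2 (0.948), FLVCR1 (0.945) and EIF2A (0.940), and for IRF4 RAB7A (0.983), UQCRC1 (0.976) and EPRS1 (0.976).

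Genes next to the called factors were taken in the order of RefSeq on GRCh38.p14. Over all genes, 5.4% were higher and 4.69% lower in KMS-34/Cfz, and 3.57% were called in KMS-11/Cfz. By limma, 4298 of 19775 genes had an unadjusted p under 0.05 in KMS-34/Cfz and 2652 in KMS-11/Cfz. Sets of 5 or 6 genes are too small for their counts to be told from these shares. Of 6 tested neighbours of BACH2, 1 rose in KMS-34/Cfz, CASP8AP2 by 0.34 (adjusted p = 0.0073), and the 6 ranged from -0.02 to 0.34. Of 5 neighbours of IRF4 (-0.09 to 0.29), DUSP22 rose by 0.28 (adjusted p = 0.0094) while IRF4 fell. EXOC2 on its other side read 0.29 (adjusted p = 0.074), and 0.40 (adjusted p = 0.0061) when KMS-34/Cfz replicate 1 was dropped. The 6 neighbours of PRDM1 (-0.21 to 0.15) and the 6 of IKZF3 (-0.08 to 0.15) included 0 that passed in KMS-34/Cfz, and 0 at an unadjusted p under 0.05. Dropping the same array gave 1 neighbour of PRDM1 a call, LOC105377924 (-0.33, adjusted p = 0.041). In KMS-11/Cfz 0 neighbours of the 4 factors passed, and 1 of IRF4 had an unadjusted p under 0.05.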

How the data were processed

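RNA of the parental and carfilzomib-resistant cells was hybridised to Affymetrix Human Genome U133 arrays, 12 in all. The deposited values are log2 values that the authors made with RMA (version not given in the sources used here), from -7.75 to 8.64 for 54613 probe sets. Each probe set is centred on a point that is not stated, since 99.99% have 3 to 9 of 12 values below 0, so no filter on dim probe sets was possible. Averaging the 41091 probe sets with a single gene name gave 19775 genes, with symbols updated by gene number for 41037, while 1801 name several genes and 11721 none. limma 3.58.1 in R 4.3.3 (lmFit, contrasts.fit, eBayes) fitted all 12 arrays with 1 mean for each of the 4 groups. Two-sided p-values were adjusted after Benjamini and Hochberg across every gene, or every probe set for single probe sets, at a threshold of 0.05. The script was tested on simulated data. The number of arrays limits the precision.

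The 10 factors and the lists of targets, partners and markers were chosen with earlier results of these data known. Named are all 10 factors, up to 3 called genes of each list for each line with the largest change, the 3 nearest tested genes on each side and the 3 genes most alike for each called factor. Plasma cell markers were named in KMS-34/Cfz alone, where all 4 called ones are given. CRBN, its ligase partners, IRF8, MYC, EDEM1, ID3, and genes whose call changed without KMS-34/Cfz replicate 1 were named after their values were seen. Alternatives were the probe set of largest variance, each line fitted alone, a block for the replicate number, aligned medians, quantile normalization, array weights, robust empirical Bayes, a variance filter and leaving out each array. Counts of fallen XBP1 and IRF4 targets under these, and list genes, neighbours and probe sets without KMS-34/Cfz replicate 1, were added after seeing the data. Promoter windows were matched for 8 of 10 factors. The ETS-IRF, IRF and BACH2-MAF motifs were planned with a further A at the end and were searched without it. Tables and figures used Python 3.11.15 with pandas 2.3.3 and matplotlib 3.10.9.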

Additional observations from a re-analysis of the deposited data

Results flagged for a closer look

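In both of the following results, the test of the difference itself found that the change from parental to resistant cells differed between the lines. For BACH2 the log2 change was larger by 0.51 in KMS-34/Cfz than in KMS-11/Cfz (0.72 against 0.21, limma adjusted p = 0.018). That call was lost without KMS-11/Cfz replicate 2 or without KMS-11 replicate 2. IKZF3 differed the other way, by -0.52 (-0.40 in KMS-34/Cfz against 0.12 in KMS-11/Cfz, limma adjusted p = 0.0067). With its probe set of largest variance in place of the average, IKZF3 did not pass (-0.33, limma adjusted p = 0.33).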

How the results depend on the processing

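Over the values of the 10 factors in 4 comparisons and up to 20 alternatives each, 0 called values turned their direction, 7 lost their call and 12 gained one. In KMS-11/Cfz the count of called factors, 0 in the report, was 1 with the line fitted alone, 1 with quantile normalization and 2 with array weights, and 0 to 1 on leaving out 1 array, where only the fit without KMS-34/Cfz replicate 1 gave 1. The gains were SPIB in each of these fits and IKZF1 (adjusted p = 0.045) with array weights, within a range of 0.045 to 0.68 for IKZF1. In KMS-34/Cfz the count of 4 was 2 with the line fitted alone, where BACH2 and IKZF3 were called, 3 with the probe set of largest variance, where PRDM1 and IKZF3 lost their call and SPIB gained one, 5 with quantile normalization or array weights, where SPIB was added, and 4 to 5 on leaving out 1 array. For the difference between lines the count of 2 was 1 with the probe set of largest variance and 1 to 2 on leaving out 1 array, at 1 without KMS-11/Cfz replicate 2 and without KMS-11 replicate 2. Between the parental lines the count of 7 stayed at 7 to 8 on leaving out 1 array, where POU2AF1 passed without KMS-11 replicate 3 (adjusted p = 0.0072), without KMS-34 replicate 2 (adjusted p = 0.040) and, with 8 called, with array weights (adjusted p = 0.023), within a range of 0.0072 to 0.25. Over all genes, the counts of 706, 1996 and 1274 (KMS-11/Cfz, KMS-34/Cfz, difference) became 1374 and 754 with each line fitted alone and 2005, 2912 and 2712 with array weights. On leaving out 1 array the KMS-11/Cfz count went down to 328 and up to 1067, and that of the difference down to 783 and up to 1935. The causes were not tested. Between resistant and parental arrays of a line, correlations of deviations from the group mean were -0.01 to 0.56 for the same replicate number (over 0.1 in 3 of 6 pairs). For different numbers they were -0.54 to 0.44 (over 0.1 in 1 of 12). Over all probe sets, KMS-34/Cfz replicate 1 correlated at 0.830 with KMS-34 replicate 1. The cause was not tested, and the replicate block left the counts at 0, 4, 2 and 7. The variance filter tested 9888 genes and kept 7 of the 10 factors. With 3 arrays a group, small changes may go undetected.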
